A study of Mus musculus with 4 samples.

Results

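A set of 10 genes of the bone morphogenetic protein (BMP) pathway was followed in livers with and without Nrg4. They are the ligands Bmp10, Gdf2, Bmp2, Bmp4 and Bmp6, the target genes Smad6, Id1, Id2 and Id3, and Hamp, which encodes the iron hormone hepcidin. A gene entered when the platform annotation paired a probe set with exactly 1 symbol and that symbol was on the list, and the probe set with the highest mean over the 4 arrays stood for it. All 10 were found, each on 1 probe set, out of 22180 genes measured. The genes were selected on the KO minus WT differences of these same arrays, since that of Bmp10 was known when the list was drawn up, so the differences of the 10 genes are described below and no p-value is attached to them.

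The samples were livers of male wild type (WT) mice and of male mice with a knockout (KO) of Nrg4. Nrg4 encodes neuregulin 4, a secreted growth factor that binds ErbB receptors. Both genotypes began a diet that causes fatty liver with inflammation (NASH diet) at 3 months of age and ate it for 20 weeks, and livers were taken from randomly fed animals. RNA was hybridised to Mouse Gene ST 2.1 arrays as 2 pools of each genotype. The sources used here do not say how many animals made up a pool, which strain was used or how the Nrg4 allele was disrupted. No group on a control diet was analysed here.

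BMPs are secreted dimers that bring type I and type II serine kinase receptors together, and the type I receptor then phosphorylates Smad1, Smad5 and Smad9. These Smads enter the nucleus with Smad4 and switch on Id1, Id2, Id3 and Smad6, the last of which feeds back as an inhibitor of the pathway. In mouse liver, Bmp10 and Gdf2 (also called BMP9) are produced by hepatic stellate cells and act on endothelial cells through the receptor Acvrl1 and its partner Eng, while Bmp2 and Bmp6 come from sinusoidal endothelial cells and drive hepcidin transcription in hepatocytes. Hepcidin closes the iron exporter Slc40a1 (ferroportin) and so lowers iron release into the blood.

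RefSeq promoter windows were found for 8 of the 10 genes on build GRCm38.p6, and the 250 bases before the start site were searched on both strands for GGCGCC, the core of the BMP response element, and TTCNNNGAA, a STAT site. GGCGCC was present in 2 of the 8 windows, those of Id2 and Hamp, and in 9.59% of all 32851 promoter windows of that length. TTCNNNGAA was present in 1 of the 8, that of Hamp, and in 7.02% of all windows. In Hamp the GGCGCC match began 109 bases and the STAT match 97 bases before the start site, with no overlap. The windows of Hamp and Id2 are shown because they hold the matches, and that of Bmp10 because its transcript differed most. Capitals mark the matches, and a match describes letters, not binding.
Hamp, chr7:30944030-30944279, minus strand: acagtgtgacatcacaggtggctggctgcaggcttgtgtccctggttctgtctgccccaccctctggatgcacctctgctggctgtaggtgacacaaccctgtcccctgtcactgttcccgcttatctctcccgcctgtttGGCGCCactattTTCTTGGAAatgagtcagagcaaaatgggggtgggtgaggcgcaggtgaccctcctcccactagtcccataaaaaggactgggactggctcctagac
Id2, chr12:25096093-25096342, minus strand: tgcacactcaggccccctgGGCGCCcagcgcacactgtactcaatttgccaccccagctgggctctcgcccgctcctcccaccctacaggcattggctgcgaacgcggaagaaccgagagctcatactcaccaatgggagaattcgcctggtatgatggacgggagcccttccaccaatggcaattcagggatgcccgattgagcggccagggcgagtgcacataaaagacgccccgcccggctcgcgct
Bmp10, chr6:87428744-87428993, plus strand: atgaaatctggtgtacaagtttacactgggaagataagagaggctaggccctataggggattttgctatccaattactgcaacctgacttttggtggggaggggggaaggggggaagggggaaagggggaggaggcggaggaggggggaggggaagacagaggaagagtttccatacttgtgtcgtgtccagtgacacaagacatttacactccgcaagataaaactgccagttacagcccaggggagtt

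All values are the deposited log2 expression values, whose zero point is unknown, so a level can be set against the same gene in another pool but not against another gene. The 41345 probe sets had array medians between 0.52 and 0.64 and values from -1.12 to 11.9. Nrg4 itself read 2.54 and 2.30 in the WT pools and 0.93 in both KO pools. All 10 genes passed the filter on dim genes, a mean at or above the table median of 0.54, which left 12458 genes for testing by limma. With 2 pools a group, p-values weigh a difference against a spread between pools that limma partly shares across genes. Each SE, given after ±, is the moderated SE of limma, with 2 residual and 3.67 prior degrees of freedom. The prior part comes from all tested genes, so an SE is not the spread of that gene's pools alone. The p-values, the SEs and the intervals below do not cover the spread between single animals.

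Of the ligands, Bmp10 was far lower in both KO pools, Bmp4 was somewhat higher in both, and in Gdf2, Bmp2 and Bmp6 the genotypes overlapped. Bmp10 (probe set 17460545) read 3.15 and 3.37 in WT and 0.22 and 0.97 in KO. Both KO pools lay well below both WT pools. The difference, KO minus WT, was -2.66 ± 0.30 (limma SE, n = 2 and 2) on the log2 scale. The KO mean lay 0.06 above the table median, at the dim end of the scale, so no fold is given and the difference may be compressed. Taken against the WT mean, KO pool 1 was at -3.04 and KO pool 2 at -2.28. In RNA of whole liver, fewer cells of a type and less RNA per cell cannot be told apart.

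Gdf2, the ligand closest to Bmp10 in receptor use, was lower in 1 KO pool and higher in the other. Gdf2 (probe set 17298738) read 3.01 and 3.10 in WT and 2.51 and 3.38 in KO. The KO pools lay on either side of the WT pools, and the difference was -0.11 ± 0.32 (SE). The KO pools stood 0.88 apart in Gdf2, against 0.08 between the WT pools.

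Bmp2 (probe set 17376677) read 2.51 and 2.75 in WT and 1.14 and 2.85 in KO. KO pool 1 was the lowest of the 4 and KO pool 2 the highest, which put the groups in overlap. The difference was -0.64 ± 0.55 (SE), or 0.22 with KO pool 1 left out and -1.49 with KO pool 2 left out, so the sign of the Bmp2 difference rested on 1 pool.

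Bmp6, the ligand best known for setting hepcidin by iron load, read 1.87 and 2.61 in WT and 2.18 and 2.46 in KO (probe set 17286682). Both KO values lay between the WT values. The difference was 0.08 ± 0.30 (SE), and it turned to -0.02 when the arrays were quantile normalized. It lay between -0.29 and 0.45 with any 1 pool left out.

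Bmp4 was the 1 of these 5 ligands with both KO pools above both WT pools. Bmp4 (probe set 17305709), a ligand of the same subgroup as Bmp2, read 2.35 and 2.31 in WT and 2.63 and 3.11 in KO. The difference was 0.53 ± 0.23 (SE), or 0.29 when KO pool 2 was left out.

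**Figure D1:**
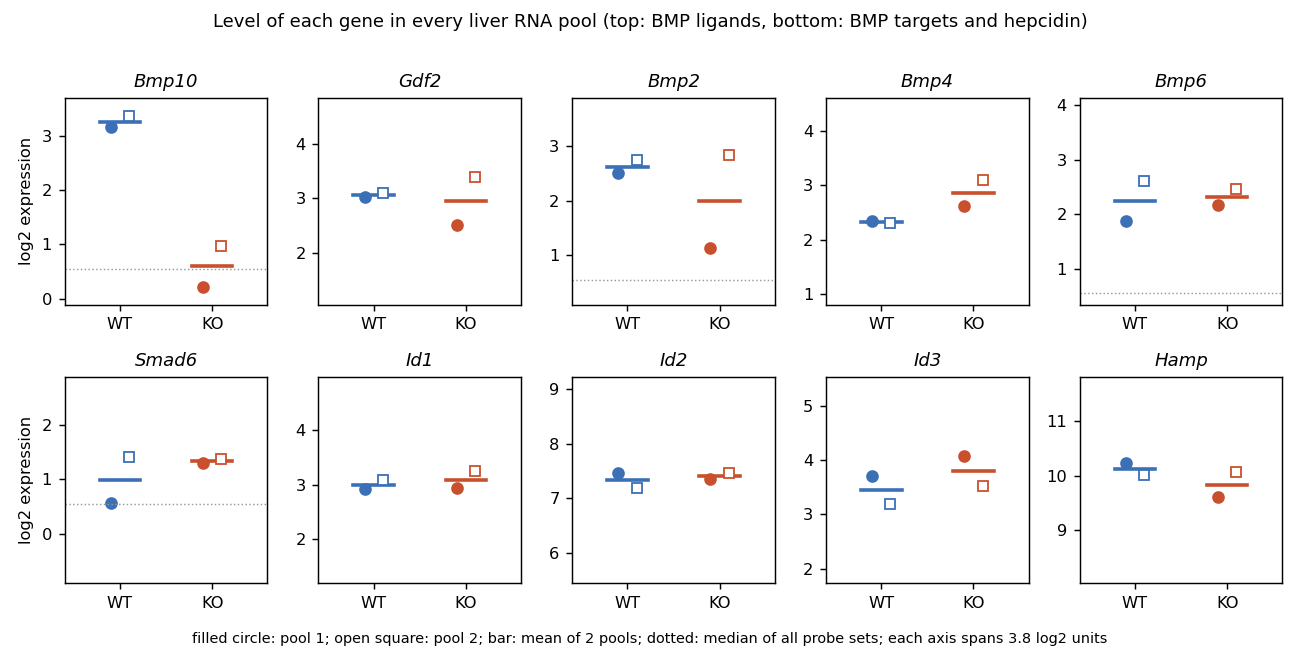
Log2 expression (vertical axes, each spanning the same width) of the 10 genes in the WT and KO liver RNA pools, with pool 1 as a filled circle, pool 2 as an open square and the mean as a bar. Bmp10 is at 3.15 and 3.37 in WT and 0.22 and 0.97 in KO, near the dotted median of all probe sets, while the pools of the 5 genes in the lower row overlap between genotypes.

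Of Smad6, Id1, Id2 and Id3, none was lower in both KO pools than in both WT pools. All 4 differences lay above 0, with a median of 0.22, and in none of them did the genotypes separate. With 1 pool left out, Smad6, Id1 and Id2 took either sign. Id1 (probe set 17377778), which encodes an inhibitor of basic helix-loop-helix factors and is a widely used readout of BMP signalling, read 2.92 and 3.08 in WT and 2.94 and 3.25 in KO. The genotypes overlapped, with a difference of 0.09 ± 0.21 (SE). Its 95% limma interval ran from -0.44 to 0.62.

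Id2 (probe set 17280310), a relative of Id1, read 7.47 and 7.19 in WT and 7.35 and 7.47 in KO. The KO pools lay within the WT range, and the difference was 0.08 ± 0.21 (SE) with an interval from -0.43 to 0.59. The promoter window of Id2 printed above holds GGCGCC, as that of Hamp does.

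Id3 (probe set 17420016), another member of that family and one that Kupffer cells, the resident macrophages of the liver, need for their development, read 3.70 and 3.18 in WT and 4.08 and 3.53 in KO. KO pool 1 was the highest, and KO pool 2 lay between the WT pools. The difference was 0.36 ± 0.29 (SE) with an interval from -0.36 to 1.09, and it shrank to 0.09 without KO pool 1 and to 0.10 without WT pool 2.

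Smad6 (probe set 17528125), the inhibitory Smad, read 0.57 and 1.40 in WT and 1.31 and 1.38 in KO. WT pool 1 stood apart at the dim end of the scale, and the other 3 pools lay within a narrow range. The difference was 0.36 ± 0.31 (SE) with an interval from -0.41 to 1.13. It was -0.06 without WT pool 1, so its sign rested on that pool.

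Hepcidin transcript was slightly lower in 1 KO pool. Hamp (probe set 17489363) read 10.23 and 10.01 in WT and 9.60 and 10.06 in KO. KO pool 1 was the lowest, and KO pool 2 lay between the WT pools. The difference was -0.30 ± 0.24 (SE) with an interval from -0.89 to 0.30, and it was -0.07 without KO pool 1. With quantile normalization the Hamp difference was -0.18. Of the 4 arrays, that of KO pool 1 had the highest median (0.64) and the lowest top value (11.54). Whether this bears on the Hamp difference was not tested. The highest probe sets on the 4 arrays read 11.5 to 11.9, so Hamp was measured in the upper part of the scale. Hamp2, a close paralogue of Hamp, has its own probe set, and cross-hybridisation between them was not tested.

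**Figure D2:**
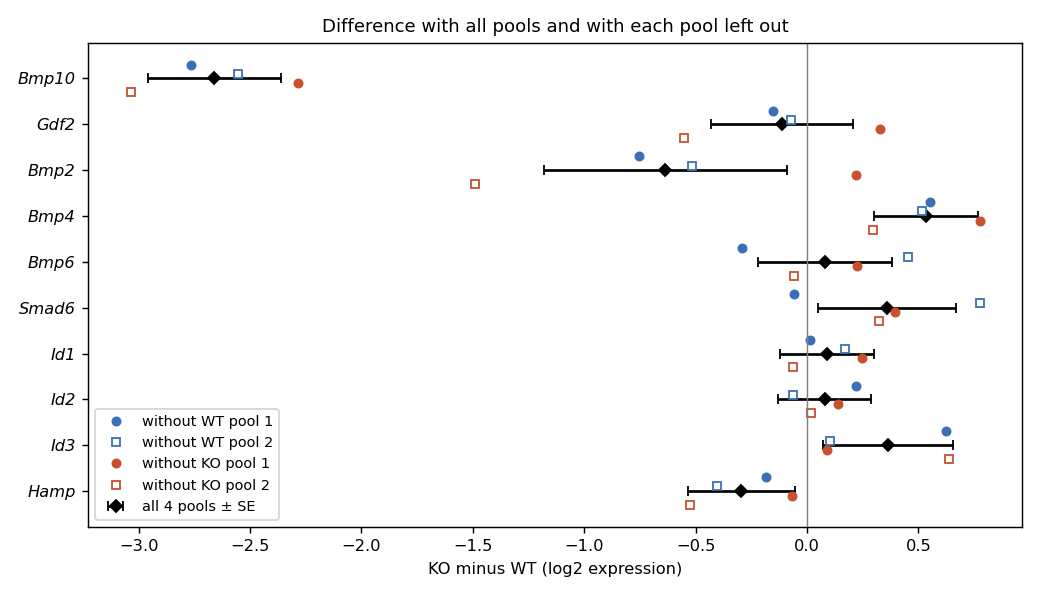
KO minus WT on the log2 scale for the 10 genes, with all pools (diamond, bar of 1 SE) and with each pool left out (coloured symbols). Bmp10 stays between -3.04 and -2.28 with any pool left out, and Gdf2, Bmp2, Bmp6, Smad6, Id1 and Id2 take both signs.

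Set side by side, the median difference was -0.11 over the 5 ligands, 0.09 over the 4 target genes and Hamp, and 0.01 over all tested genes. The ligand median was 0.22 without KO pool 1 and -0.55 without KO pool 2. Over the other 4 ligands, Bmp10 set aside, it was -0.02. The genotypes did not overlap in 2 of the 10 genes, against 41.7% of all tested genes. Of these, Bmp4 was higher in KO, as were 22.2% of all tested genes, and Bmp10 lower, as were 19.5%. None of the 10 was called by limma at an adjusted p under 0.05, a threshold that 0.0482% of the tested genes passed. At an unadjusted p under 0.05 the count was 1 of 10 beside 10.3% of all genes, and with a variance modelled on intensity it was also 1 of 10 at the adjusted threshold beside 1.09%. Because the genes were selected on this contrast, nothing is read from these counts.

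No other gene of the BMP pathway or of hepcidin control passed the adjusted threshold of limma. The wider list held 74 genes in 7 roles, of which 71 were measured and 51 passed the filter on dim genes. Bmp8b, Gdf6, Hey2 and Tmem100 passed through 1 genotype alone. Of those 51, 0 were called by limma at an adjusted p under 0.05 in either direction, beside 0.0482% of all tested genes. With Bmp8b set aside the smallest adjusted p of limma was 0.312 (Il6ra). At an unadjusted p under 0.05 there were 5 (9.8%, beside 10.3% of all tested genes). Of these, 3, Bmp8b, Hfe and Jak2, were higher and 2, Tfr2 and Il6ra, lower. Bmp8b is in the count only because its KO pools took it past the filter, so nothing is read from its place there. With a variance modelled on intensity the adjusted test of limma called 1, Il6ra, beside 1.09% of all tested genes. The median difference of the 51 was 0.03, with 28 above 0 and 23 below.

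Among the other ligands 5 of 10 passed the filter. Bmp8b, best known as a ligand of brown fat and the male germ line in mice, read -0.07 and 0.14 in WT and 1.58 and 0.91 in KO. Both KO pools were above both WT pools, by 1.21 ± 0.28 (SE) on the log2 scale. Bmp8b passed the filter through its KO pools alone, with a WT mean of 0.04 and a KO mean of 1.24, so it had to differ and its p is not given. Bmp7 differed by 0.41 ± 0.29, or 0.04 without KO pool 1, and Gdf6 by -0.42 ± 0.24, or -0.20 without WT pool 1.

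The receptors through which Bmp10 acts differed by 0.03 to 0.25 between genotypes, with SEs of 0.20 to 0.25. Acvrl1, the type I receptor of endothelial cells, read 1.14 and 1.24 in WT and 1.58 and 1.20 in KO, a difference of 0.20 ± 0.22 (SE; limma, adjusted p = 0.807). Eng, its co-receptor, differed by 0.03 ± 0.25, which became negative after median centring of the arrays. Bmpr2, the type II receptor, differed by 0.25 ± 0.20, with both KO pools above both WT pools, as in 22.2% of all tested genes. Acvr1, a type I receptor that also serves hepcidin control in hepatocytes, had the smallest p of the 10 tested receptor genes, at 0.56 ± 0.24 (adjusted p = 0.509). Of the 10, 8 lay above 0 and 2 below.

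The Smads and those antagonists that passed the filter lay close to 0. All 9 Smad genes and Smad inhibitors were tested, and their differences ran from -0.10 to 0.26, with Ski, a repressor of Smad complexes, highest. Smad7, an inhibitory Smad that BMP and TGF-beta signals induce, read 2.12 and 1.87 in WT and 1.55 and 2.30 in KO. The WT values lay between the KO values, and the difference was -0.07 ± 0.30. Smad5 differed by 0.13 ± 0.30 and the ubiquitin ligase Smurf2 by -0.10 ± 0.19. Of 15 measured antagonists and modulators, 8 were below the filter level, and the 7 tested ran from -0.21 (Bmp1, the protease that cleaves chordin) to 0.28 (Fstl1), with Fst, the activin-binding follistatin, at 0.19.

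Of 9 further target genes that were tested, 2 lay above 0 and 7 below, with a median of -0.07. The genotypes did not overlap in 3 of the 9, with Hey1 higher in KO, beside 22.2% of all tested genes, and Gja4 and Tmem100 lower, beside 19.5%. Hey1, a transcriptional repressor induced by Notch and BMP signals in endothelium, differed by 0.48 ± 0.25 (SE; limma, adjusted p = 0.587), and its relative Hey2 by -0.50 ± 0.32. The Hey2 difference ran from -0.92 with WT pool 1 left out to -0.08 with WT pool 2 left out, and Hey2 passed the filter through its WT pools alone, with a KO mean of 0.39, so its p is not given. Gja4, a gap junction protein of arterial endothelium, differed by -0.34 ± 0.22, or -0.14 without WT pool 1. Tmem100, an endothelial protein induced through Acvrl1, was chosen after its value was seen and read 0.91 and 0.56 in WT and 0.52 and 0.32 in KO, a difference of -0.32 ± 0.22. It too passed the filter through its WT pools alone. Atoh8, a hepatocyte target that tracks hepcidin in mice, was chosen after its value was seen and differed by -0.07 ± 0.24.

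Among the genes that set hepcidin, Tfr2 was lower and Hfe higher in both KO pools, and neither passed the adjusted threshold. Tfr2, the transferrin receptor with which hepatocytes sense iron, read 6.62 and 6.53 in WT and 5.85 and 6.06 in KO, a difference of -0.62 ± 0.20 (SE; limma, adjusted p = 0.397). Hfe, its haemochromatosis partner, read 4.73 and 4.38 in WT and 5.31 and 4.98 in KO, a difference of 0.59 ± 0.23 (adjusted p = 0.483). The genotypes did not overlap in either gene, beside 41.7% of all tested genes. Of the 10 tested genes in this role, 2 separated higher in KO and 4 lower, beside 22.2% and 19.5% of all tested genes.

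Tmprss6, the protease that cuts a BMP co-receptor of hepcidin control, differed by -0.23 ± 0.19 (SE) and the exporter Slc40a1 by -0.13 ± 0.19. Hamp2 read 0.46 and 0.89 in WT and 2.05 and 0.56 in KO. KO pool 1 had the highest Hamp2 value and the lowest Hamp value of all pools, and a link between these values was not tested. The Hamp2 difference of 0.63 ± 0.50 became -0.12 without KO pool 1. Of the 10 tested genes in this role, 5 lay above 0 and 5 below.

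On the inflammatory arm of hepcidin control, the receptor Il6ra was lower in both KO pools. It read 6.19 and 6.16 in WT and 5.09 and 5.47 in KO, a difference of -0.90 ± 0.22 (SE; limma, adjusted p = 0.312, or 0.0433 with a variance modelled on intensity). Jak2, the kinase downstream, read 4.64 and 4.07 in WT and 5.12 and 5.15 in KO, a difference of 0.78 ± 0.25 (adjusted p = 0.405). The pools of both genes separated by genotype, in opposite directions, beside 22.2% of all tested genes higher in KO and 19.5% lower. Of the 6 tested genes in this role, 1 separated higher in KO and 3 lower. Il6st, the signalling subunit, differed by -0.13 ± 0.19, and Socs3, the feedback inhibitor that STAT3 induces, by 0.03 ± 0.20, which became negative after median centring or quantile normalization. Il6 itself, chosen after its value was seen, read between -0.21 and 0.32 and was below the filter level.

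**Figure D3:**
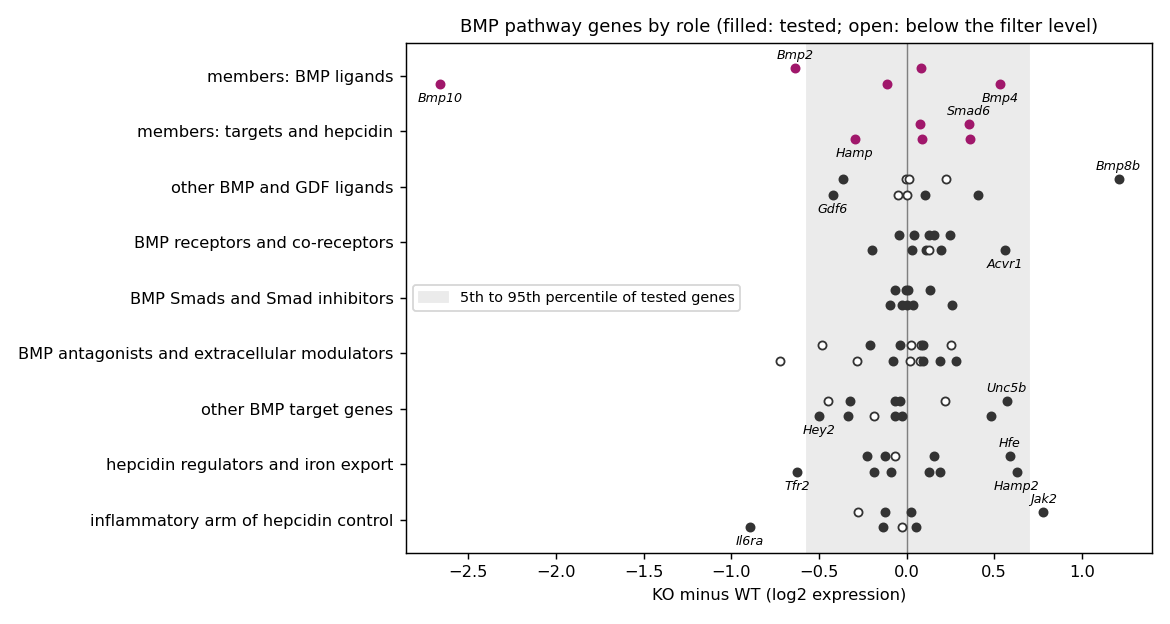
KO minus WT on the log2 scale for the 10 genes (magenta) and for the 7 other roles of the pathway (dark), 1 point a gene, open where the gene was below the filter level; the grey band spans the 5th to 95th percentile of tested genes, from -0.57 to 0.70. Bmp10 at -2.66 lies outside the range of all other points, which reach from -0.90 (Il6ra) to 1.21 (Bmp8b).

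The cell types that make or answer these ligands were compared through marker lists, since Bmp10 comes from stellate cells. All 14 stellate cell markers were measured above the filter level, and 0 of them were called by limma beside 0.0482% of all tested genes. The other 8 marker lists also held 0 called genes. At an unadjusted p under 0.05 there were 2 of the 14 stellate markers, beside 10.3% of all tested genes. With a variance modelled on intensity 0 were called, beside 1.09%. The stellate list had a median of 0.18, and its summed log2 level was 51.9 to 53.4 in WT and 54.0 to 57.7 in KO, with 10 markers above 0 and 4 below. Their part in the Bmp10 value was not tested. Lrat, the enzyme that stores vitamin A in these cells, read 4.82 and 4.66 in WT and 4.88 and 4.81 in KO. Reln, another stellate marker, read 4.96 and 5.02 in WT and 4.69 and 5.07 in KO. Both were chosen after their values were seen. Pdgfrb at 1.14 ± 0.20 (SE; limma, adjusted p = 0.24) and Cygb at 0.88 ± 0.19 (adjusted p = 0.297) were the stellate markers with the smallest p, both higher in KO, with Rgs5 next at 0.36. With the mean of its probe sets Rgs5 was at 0.15.

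Sinusoidal endothelial markers, from cells that make Bmp2 and Bmp6, had a median of 0.09 over 13 tested of 14 genes, with a summed level of 56.2 to 56.8 in WT and 56.1 to 57.9 in KO. The smallest p belonged to Flt4 (0.35), Cdh5 (0.33) and Gpr182 (-0.26). Hepatocyte markers, from the cells that make hepcidin, had a median of -0.03 over 10 genes, with a summed level of 92.65 and 92.71 in WT and 91.5 to 91.7 in KO. Cps1 (-0.39), Hnf4a (-0.28) and Tat (-0.43) were its lowest members. Of these, Cps1 was called by limma when the variance was modelled on intensity (adjusted p = 0.0427), beside 1.09% of all tested genes. Of the 10 hepatocyte markers 3 lay above 0 and 7 below.

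Kupffer cell markers had a median of 0.0016 over 11 genes and a summed level of 47.9 to 50.3 in WT and 47.5 to 48.5 in KO. Within that list Marco, a scavenger receptor, stood out, at 2.63 and 3.53 in WT and 0.76 and 0.66 in KO. The difference was -2.37 ± 0.33 (SE; limma, adjusted p = 0.181, or 0.0181 with a variance modelled on intensity). Marco was the 1 gene of the list called with that variance, beside 1.09% of all tested genes. Clec4f, a defining Kupffer cell lectin chosen after its value was seen, read 4.58 and 4.97 in WT and 5.29 and 4.92 in KO. Il18bp was at 0.74 and Spic at -0.45.

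Monocyte-derived macrophage markers had a median of 0.93, with all 8 measured genes above 0. In 7 of the 8 both KO pools lay above both WT pools, as in 22.2% of all tested genes. By limma 0 of the 8 were called at the adjusted threshold with either variance model. Of all tested genes 0.0482% were, or 1.09% with a variance modelled on intensity. An unadjusted p under 0.05 was found in 6 of the 8, beside 10.3% of all tested genes. Their summed level was 23.1 to 24.0 in WT and 30.4 to 31.1 in KO, led by Cx3cr1 (1.59), Trem2 (1.30) and Ms4a7 (1.28). Their part in the values of Id3, which macrophages also express, was not tested. Cholangiocyte markers had a median of 0.35 over 6 measured genes. Sox9 was at 0.86 (0.26 without WT pool 2), Epcam at 0.71 (0.21 without KO pool 2) and Krt7 at 0.40. Krt7 passed the filter through its KO pools alone, with a WT mean of 0.50.

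Markers of the heart atria, the other known site of Bmp10 expression, were mostly dim. Of 9 atrial markers 6 were below the filter level. Of these, Myl7, Myl4, Sln and Myh6 differed by -0.06 to 0.11, while Actc1 (0.72) and Nkx2-5 (0.73) were higher in both KO pools, all 6 named after their values were seen. The 3 above the filter level were Nppa (0.22), Tnnt2 (-0.43) and Tbx5 (0.29). Nppa and Tbx5 passed it through their KO mean alone and Tnnt2 through its WT mean alone, so nothing is read from these differences. Smooth muscle markers had a median of 0.02 over 6 genes, with Cnn1 at -0.27, Myl9 at 0.06 and Tagln at 0.03, and the small differences of Myl9 and Tagln changed sign with the scaling. The 3 measured erythroid markers had a median of 0.06, with Klf1 at 0.15 and Slc4a1 at -0.07. Klf1 passed the filter through its KO mean alone, with a WT mean of 0.51.

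**Figure D4:**
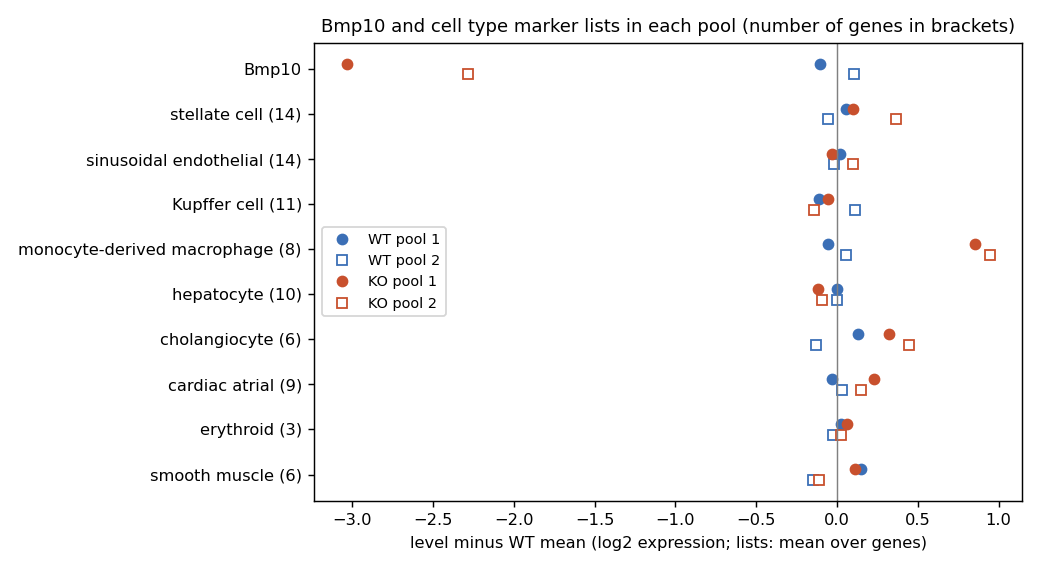
Level minus the WT mean on the log2 scale for Bmp10 and for 9 marker lists (mean over the genes of a list, their number in brackets), with 1 symbol a pool. The KO pools of Bmp10 are at -3.04 and -2.28. Those of the list for stellate cells, which make Bmp10 in mouse liver, lie above the WT pools. Of its 14 genes 10 lie above 0 and 4 below, with Pdgfrb (1.14) and Cygb (0.88) highest. Their part in the Bmp10 value was not tested.

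The genes whose 4-pool profile lay nearest to that of Bmp10, by Euclidean distance after each gene was centred on its own mean, were Clec2h (0.363), Sult2a8 (0.46), Cyp4a12b (0.605), n-R5s136 (0.634) and Zbtb16 (0.648). They were taken from 11498 genes over 4 pools. Clec2h, a C-type lectin, read 3.81 and 3.92 in WT and 0.90 and 1.20 in KO. Sult2a8, a sulfotransferase, read 8.11 and 7.95 in WT and 5.40 and 6.09 in KO. Cyp4a12b, a fatty acid hydroxylase, differed by -2.63, n-R5s136 by -2.24 and Zbtb16, a zinc finger factor, by -2.38. Within a distance of 1 of Bmp10 lay 17 genes.

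For Hamp the nearest profiles were those of Pllp (0.0253), Ift172 (0.0354), Prf1 (0.0386), Scamp3 (0.0473) and Tpt1 (0.048). Scamp3 differed by -0.30, or -0.0084 with the mean of its probe sets, and Tpt1 by -0.26, or -0.089. Pllp read 3.43 and 3.21 in WT and 2.79 and 3.22 in KO, with KO pool 1 lowest as in Hamp. Within a distance of 1 of Hamp lay 9981 of the 11498 genes. At that distance a profile as shallow as that of Hamp singles out no small set. Within 0.1 of Hamp lay 43 genes, and within 0.1 of Bmp10 lay 0. The distances were not scaled to the size of a gene's difference.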

How the data were processed

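Liver RNA of 2 WT and 2 KO pools was measured on Affymetrix arrays from 400 ng of total RNA per the labels' protocols. The deposited table holds log2 expression per probe set. The submitters' processing notes name oligo, RMA and limma, and the sources used here state no version, order of steps, genome build or annotation. The zero point of the scale is unknown, there are no detection calls, and batches by scan date or slide were not analysed here. With 4 arrays, precision is limited by their number.

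Of the probe sets, 23521 had 1 symbol, 1814 several and 16010 none, and the latter groups were left out. KO and WT were compared by limma 3.58.1 in R 4.3.3 (lmFit, eBayes, no covariate, Benjamini-Hochberg over 12458 genes, 2 residual and 3.67 prior degrees of freedom), tested on simulated data. An exact permutation of 2 pools against 2 cannot go below 0.333 (two-sided). Intervals are 95% limma intervals. The members and lists were chosen with earlier results of these data known. Named genes are the 10 members, Nrg4, 8 pathway genes, any list member called, the 3 tested genes of each list with the smallest p, and the 5 nearest profiles of Bmp10 and Hamp, and other genes are marked as chosen after their values were seen. Deviations of same-numbered pools correlated at -0.04 across genes, and the labels tie no pools together. Alternatives were the variance model, array scaling, the filter, the mean of probe sets, each pool left out and the pool number as a block.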

Additional observations from a re-analysis of the deposited data

How the results depend on the processing

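The Bmp10 difference of -2.66 ran from -3.04 to -2.28 with any 1 pool left out and from -2.73 to -2.66 under the other alternatives. The count of genes called by limma was 6, against 136 with a variance modelled on intensity, 2 with the pool number as a replicate block and 0 with each 1 pool left out, where fewer arrays remain. Those fits assume that the lone pool varies like the other group. The labels give no shared source for same-numbered pools, so the block is no pairing, and Bmp10 was at -2.66 with it. The count of other pathway genes called was 0, or 1 with a variance modelled on intensity, and 0 with each 1 pool left out. The ligand median of -0.11 ran from -0.55 to 0.22 with any 1 pool left out, and the median of the target genes and Hamp, 0.09, from 0.012 to 0.14.

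Some signs turned, and the cause was not tested. Among the 10 genes Gdf2 ran from -0.55 to 0.33 with any 1 pool left out, Bmp2 from -1.49 to 0.22, Bmp6 from -0.29 to 0.45, Smad6 from -0.06 to 0.78, Id1 from -0.06 to 0.25 and Id2 from -0.06 to 0.22. With arrays centred on their medians Tagln was at -0.0122, Eng at -0.0132 and Socs3 at -0.0189. With quantile normalization Myl9 was at -0.00542, Tagln at -0.0275 and Socs3 at -0.00546. With any 1 pool left out Smad5 ran from -0.17 to 0.44, Smad7 from -0.44 to 0.31, Eng from -0.24 to 0.31, Fstl1 from -0.038 to 0.61 and Fst from -0.046 to 0.43. Hamp2 ran from -0.12 to 1.37, Socs3 from -0.11 to 0.16, Klf1 from -0.046 to 0.34, Slc4a1 from -0.45 to 0.30, Myl9 from -0.062 to 0.18 and Tagln from -0.18 to 0.25. Dim genes, Bmp10 in KO among them, may have compressed differences.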
